A study of Mus musculus with 6 samples.

Results

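The Homer, Dlg and Shank genes encode the scaffold proteins that hold glutamate receptors and their signalling partners in place under the membrane of excitatory synapses. These 10 genes (Homer1, Homer2 and Homer3, Dlg1 to Dlg4, and Shank1, Shank2 and Shank3) were chosen by symbol from the 23282 entries of the deposited count tables, and each symbol had 1 entry. The RNA came from 1 forebrain hemisphere, taken after removal of the olfactory bulbs and the cerebellum, of C57BL/6J male mice aged 8 to 10 weeks. Mice of the group labelled water avoidance stress (WAS) stood for 1 h on a small platform surrounded by water, and mice of the control group stood for 1 h on the same platform in a container without water. Each group had 3 mice with 1 library per mouse (values are given in the order of replicates 1, 2 and 3), and the labels name no transgene or agent. Tissue was taken at the end of the procedure, so a single time point was measured.

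At an excitatory synapse the scaffold is built in layers. Dlg proteins, of which Dlg4 encodes PSD95, lie next to the membrane and bind NMDA receptors, the partners of AMPA receptors and adhesion proteins. GKAP proteins, the products of the Dlgap genes, bridge Dlg proteins to Shank proteins deeper in the density, and Homer proteins link Shank to metabotropic glutamate receptors and to the calcium release channels of the endoplasmic reticulum. Homer1 is unusual among them because neuronal activity induces a short form, Homer1a, which lacks the coiled coil and uncouples the long forms. Homer2 and Homer3 are not known as genes of this immediate early class.

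The first 250 bases before an annotated start are shown for Homer1 and Homer3, which were the 2 members whose groups did not overlap and which differed in opposite directions. The sequences are from RefSeq on GRCm38.p6, the assembly also called mm10, and both genes lie on the plus strand. Capitals mark TGACG, the core of the cAMP response element, searched on both strands (TGACG or CGTCA).
Homer1, chr13:93303507-93303756: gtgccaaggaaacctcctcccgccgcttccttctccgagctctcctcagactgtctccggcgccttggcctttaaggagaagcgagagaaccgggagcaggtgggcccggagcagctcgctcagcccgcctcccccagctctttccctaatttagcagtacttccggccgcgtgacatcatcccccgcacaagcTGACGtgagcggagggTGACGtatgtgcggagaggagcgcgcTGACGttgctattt
Homer3, chr8:70282749-70282998: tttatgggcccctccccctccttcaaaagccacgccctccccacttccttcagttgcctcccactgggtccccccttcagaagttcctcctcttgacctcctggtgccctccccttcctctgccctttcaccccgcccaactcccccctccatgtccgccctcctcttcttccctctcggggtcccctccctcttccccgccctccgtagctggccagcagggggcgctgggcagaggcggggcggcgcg
The Homer1 window held 3 copies, starting 56, 40 and 14 bases before the start site, and the Homer3 window held 0. Of 32851 such windows of all genes, 17.8% held at least 1 copy and 0.688% held 3 or more. The table had 18 windows for 8 of the 10 members, and 3 of the 18 held a copy, the other two being single copies before starts of Dlg3 and Dlg4. A second Homer1 start further downstream had no copy. These matches describe the letters only and say nothing of binding in these brains.

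The libraries held between 9248520 and 10502029 counts, and differences between them that the labels do not give were seen before the members were compared. Column headings inside the tables begin with WC for the WAS label and with WS for the control label, and the sources used here explain neither. Groups follow the labels, and all directions below would be opposite were the labels exchanged. Markers of forebrain regions differed between libraries of the same label. The summed level of 10 striatal markers was 175 and 412 CPM (counts scaled to a library total of 1000000) in WAS replicates 1 and 3, 2104 CPM in WAS replicate 2 and 1049 to 1434 CPM in the control libraries. The sum of 8 thalamic markers was 757 and 649 CPM in WAS replicates 1 and 3 against 303 to 328 CPM in the other 4 libraries, and that of 8 midbrain markers was 105 and 142 CPM against 23.5 to 31.1 CPM. The 8 cortical markers summed to 807 to 912 CPM in the WAS-labelled libraries and 956 to 1103 CPM in the control-labelled ones. The 7 general neuronal markers summed to 6276 to 6563 CPM and 6683 to 7392 CPM, so neither sum overlapped between groups. Singly, 3 of the 8 cortical and 1 of the 7 neuronal markers did not overlap. All 8 cortical markers had log2 fold changes below 0, while of the neuronal ones 5 were below 0 and 2 above. The sum of the 7 astrocyte markers also did not overlap, with 1877 to 2156 CPM and 1682 to 1831 CPM. Singly, 1 of these 7 did not overlap, and 5 had log2 fold changes above 0 and 2 below. Sums of hippocampal, cerebellar, oligodendrocyte, microglial, endothelial and choroid plexus markers overlapped. The cerebellar granule cell marker Gabra6 was at 0 counts in 5 libraries and at 1 count in the other. In such bulk tissue, fewer cells of a type and less RNA per cell cannot be told apart. The part of these regional differences in the results was not tested.

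No scaffold gene passed an adjusted p of 0.05 in the comparison of the WAS-labelled libraries with the control-labelled ones, from edgeR's quasi-likelihood fit after Benjamini-Hochberg adjustment over 15239 genes. At an unadjusted p under 0.05, 3 of the 10 members passed, Homer1 and Dlg1 being lower and Homer3 higher in the WAS-labelled libraries, where 7.24% of all genes tested passed. DESeq2 also gave 3 members at an unadjusted p under 0.05 and 0 at an adjusted p of 0.05, which 0.144% of all genes passed with that tool. None met the study's criterion of a fold change of at least 1.5 together with an unadjusted p under 0.05, which 2.38% of all genes met. The groups did not overlap for 2 members, Homer1 and Homer3, against 12.2% of all genes tested (8.42% higher and 3.76% lower). The median log2 fold change of the members was -0.12, with 7 below 0 and 3 above, while the median over all genes tested was 0.00088.

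The members' count was read against the share of all genes called in the same analysis. It was 3 with total-count scaling (7.66% of all genes), with DESeq2 (5.82%), with no filter on low counts (6.9%), with edgeR's own filter (7.43%) and with the replicate number as a block (9.37%), and 1 with limma (5.7%) and with scaling to neuronal markers (15.1%). Of the fits that left out a library, it was 3 without WAS replicate 1 (6.57%), 5 without WAS replicate 2 (13.7%), 2 without WAS replicate 3 (4.29%), 2 without control replicate 1 (4.97%), 3 without control replicate 2 (4.09%) and 2 without control replicate 3 (7.23%). With WAS replicates 1 and 3 both left out, a setting chosen after the data were seen, 1 WAS-labelled library remains, the control libraries alone supply the spread, and the lone library is assumed to vary like them. The count there was 3 (5.34%), namely Homer3, Shank1 and Shank3, and single values from this setting are given below without a p. Under the fold criterion 1 member passed without WAS replicate 1 (2.15% of all genes) and 1 without WAS replicate 2 (5.33%), 0 without WAS replicate 3 (1.7%), control replicate 1 (2.11%), control replicate 2 (1.73%) or control replicate 3 (2.93%), and 2 with WAS replicates 1 and 3 both left out (2.26%).

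**Figure D1:**
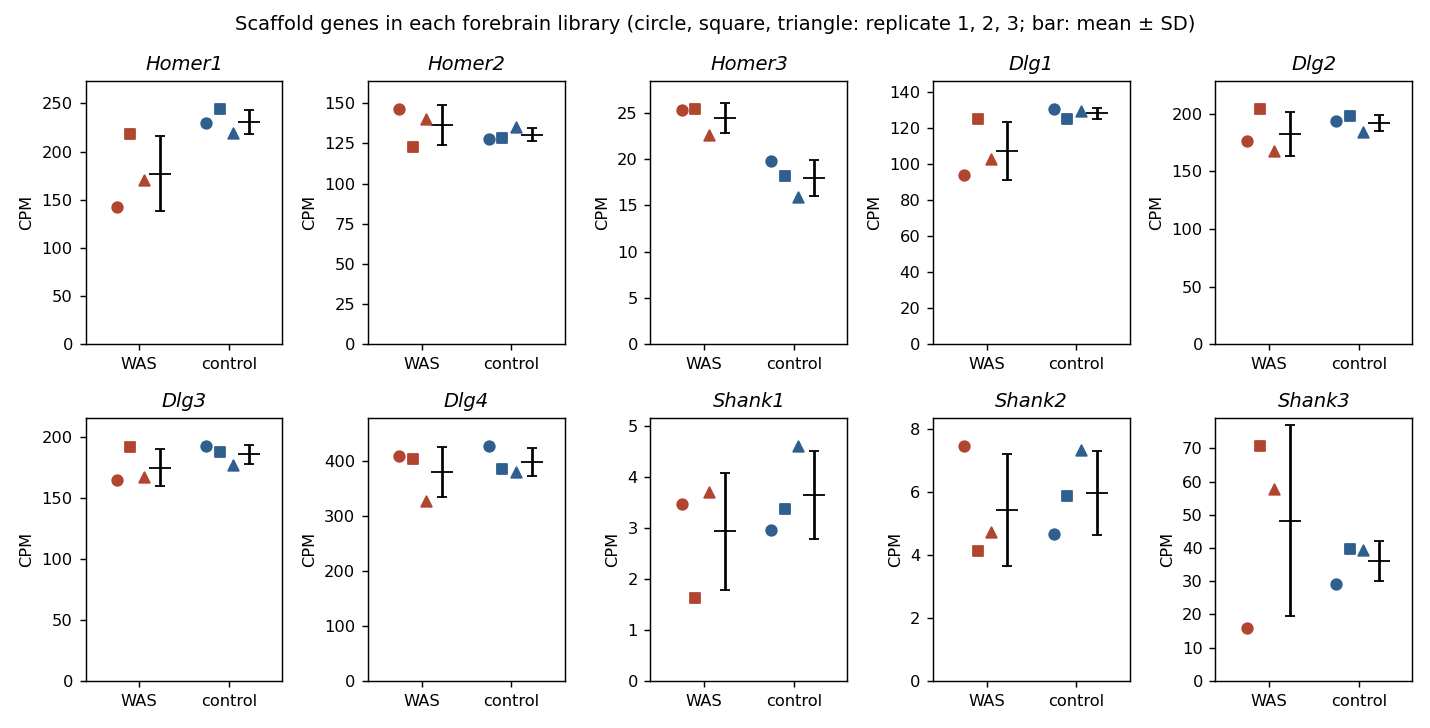
Expression of the 10 scaffold genes in CPM (vertical axis from 0) in each library, by label. Circles, squares and triangles are replicates 1, 2 and 3, and the black bar is the mean ± SD of 3 libraries. The groups are apart for Homer1 and Homer3, and Shank3 spans 15.8 to 70.7 CPM within the WAS-labelled libraries.

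Of the 3 Homer genes, 2 passed an unadjusted p under 0.05, in opposite directions. Homer1 (ENSMUSG00000007617, chromosome 13, 93299635 to 93405129, plus strand) was measured at 142, 219 and 170 CPM in WAS replicates 1, 2 and 3 and at 230, 244 and 219 CPM in control replicates 1, 2 and 3. Its counts were 1431, 2022 and 1697 against 2415, 2532 and 2183. The groups were apart, but WAS replicate 2 lay just under the lowest control library (218.6 and 218.8 CPM), and the separation came from WAS replicates 1 and 3. The mean was 177 ± 38.7 CPM (SD, n = 3) in the WAS group and 231 ± 12.6 CPM (SD, n = 3) in the control group. The log2 fold change of Homer1 was -0.42 (standard error 0.13, unadjusted p = 0.00912, adjusted p = 0.562 by edgeR). With WAS replicates 1 and 3 both left out, the log2 fold change of Homer1 was -0.12. Without WAS replicate 2 it was -0.60, with an adjusted p of 0.00280, in a fit in which 3.22% of all genes passed that threshold.

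Because Homer1 has an activity-induced short form, the ends of its transcripts matter for these 3′ counts. The GENCODE annotation lists 11 coding transcripts of Homer1 with 8 distinct ends, which fall into 6 places more than 500 bases apart. The deposited tables give 1 count for the symbol, so Homer1a and the long forms cannot be told apart. No stretch of 50 bases in the last 500 bases of the Homer1 transcripts occurred in a transcript of another gene.

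Homer3 (ENSMUSG00000003573, chromosome 8, 70282827 to 70294361, plus strand), which encodes a long form known from Purkinje cells and hippocampal neurons, was measured at 25.3, 25.4 and 22.6 CPM in the WAS-labelled libraries and at 19.8, 18.2 and 15.9 CPM in the control-labelled ones. Its counts were 255, 235 and 226 against 208, 189 and 159. All 3 libraries labelled WAS were higher than all 3 labelled control, including WAS replicate 2, which had the highest value. The mean of Homer3 was 24.5 ± 1.58 CPM (SD, n = 3) against 17.98 ± 1.95 CPM (SD, n = 3), a log2 fold change of 0.40 (standard error 0.13, unadjusted p = 0.0101, adjusted p = 0.570 by edgeR). Homer3 kept an unadjusted p under 0.05 in every alternative analysis listed above that held at least 2 WAS-labelled libraries, with log2 fold changes between 0.33 and 0.56. With WAS replicates 1 and 3 both left out it was at 0.45. For single values of 3 libraries against 3, the exact permutation test cannot go below 0.1, which Homer1 and Homer3 each reached.

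The end of Homer3 overlaps exons of Ddx49, a gene of an RNA helicase on the opposite strand (chromosome 8, 70292866 to 70302489). The study's methods do not say whether strand was used in counting, and without strand the reads of the 2 genes cannot be told apart there. Ddx49 had 22.9, 24.3 and 19.8 CPM in the WAS-labelled libraries and 21.9, 19.2 and 21.9 CPM in the control-labelled ones, with overlapping groups and a log2 fold change of 0.053. The sum of 10 cerebellar markers, given beside Homer3 because of its Purkinje cell expression, was 217 to 254 CPM in the WAS-labelled libraries and 211 to 242 CPM in the control-labelled ones. Of these 10 genes 8 were tested, 4 with values above 0 and 4 below, and Cbln1 alone had an unadjusted p under 0.05, being higher (170, 64 and 120 counts against 79, 30 and 66, log2 fold change 1.02). The Purkinje cell marker Pcp2 had 193, 197 and 195 counts against 196, 191 and 252. The 8 hippocampal markers summed to 601, 411 and 531 CPM against 542, 480 and 391 CPM and overlapped, with 7 of the 8 above 0 on the log2 scale and 2 of them higher at an unadjusted p under 0.05. The part of either list in the Homer3 difference was not tested.

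Homer2 (ENSMUSG00000025813, chromosome 7, 81600481 to 81707527, minus strand) differed little, with 146, 123 and 140 CPM in the WAS-labelled libraries and 128, 128 and 135 CPM in the control-labelled ones. WAS replicates 1 and 3 were the highest and WAS replicate 2 the lowest of the 6 libraries. The log2 fold change of Homer2 was 0.027 (standard error 0.091, unadjusted p = 0.775 by edgeR), and it was -0.029 without WAS replicate 1 and -0.13 with WAS replicates 1 and 3 both left out.

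A ratio of 2 members in the same library does not depend on how libraries are scaled. The Homer1 to Homer3 count ratio was 5.61, 8.60 and 7.51 across the WAS replicates and 11.6, 13.4 and 13.7 in the control replicates. Since Homer1 was lower and Homer3 higher in every WAS-labelled library, these ratios had to separate, and they restate both genes without testing anything further. The mean log2 ratio differed by -0.85 between the WAS and control groups. When single libraries were dropped, the difference of the log2 ratio Homer1/Homer3 stayed between -0.99 and -0.68. There were 12 pairs within the families, compared with the members' own levels known.

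The Homer2 to Homer3 ratio was 5.78, 4.83 and 6.20 against 6.46, 7.05 and 8.49, a log2 difference of -0.39 without overlap. The Homer1 to Homer2 ratio overlapped, since it was 1.78 in WAS replicate 2 and 1.62 in control replicate 3. In these raw counts Homer1 took 45.3%, 59.6% and 51.0% of the Homer counts in the WAS-labelled libraries and 60.9%, 62.5% and 59.1% in the control-labelled ones, and Homer3 took 6.80% to 8.07% against 4.31% to 5.24%. Shares of counts depend on where the tables count each gene's end and are compared between libraries only. The summed Homer counts were 338 ± 26.8 CPM (SD, n = 3) in the WAS group and 379 ± 10.4 CPM (SD, n = 3) in the control group, without overlap.

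**Figure D2:**
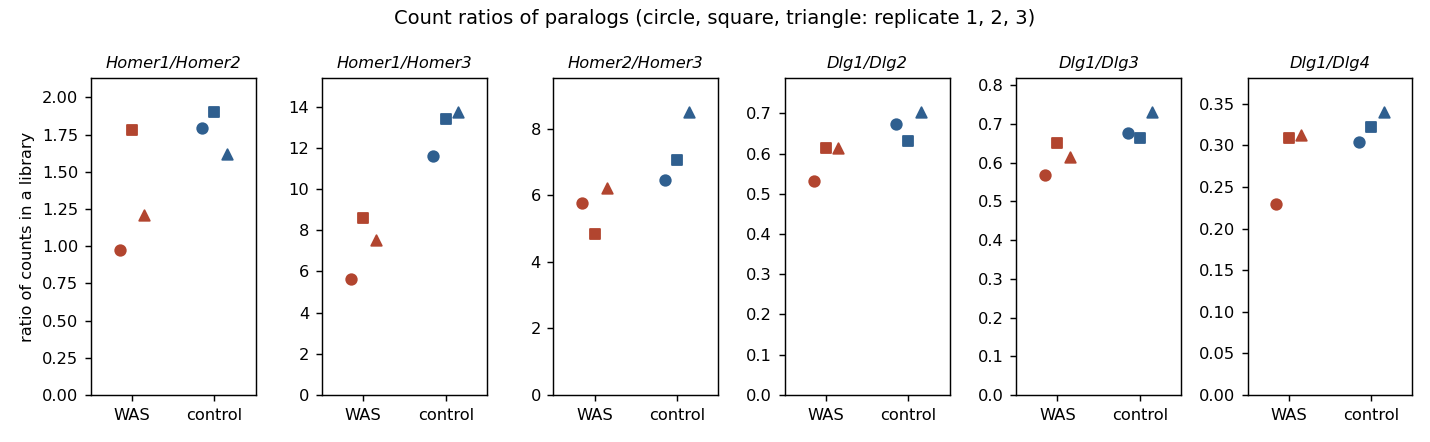
Ratio of the raw counts of 2 scaffold genes in each library (vertical axis, no unit, from 0) for the 3 Homer pairs and the 3 pairs with Dlg1, by label. Circles, squares and triangles are replicates 1, 2 and 3. The Homer1/Homer3 ratio is at most 8.60 in the WAS-labelled libraries and at least 11.6 in the control-labelled ones.

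The Dlg genes encode SAP97 (Dlg1), PSD93 (Dlg2), SAP102 (Dlg3) and PSD95 (Dlg4). All had log2 fold changes below 0, but only Dlg1 reached an unadjusted p under 0.05. After scaling to the summed neuronal markers Dlg2 (0.049), Dlg3 (0.033) and Dlg4 (0.055) were above 0. They stayed below the median of all genes, which that scaling raised to 0.16. Dlg1 (ENSMUSG00000022770, chromosome 16, 31663443 to 31875129, plus strand) was measured at 93.7, 125 and 103 CPM across the WAS replicates and at 130, 125 and 129 CPM in the control replicates. WAS replicate 2 lay within the control range by a small margin (125.1 against 124.8 CPM in control replicate 2), and WAS replicates 1 and 3 lay below it. The mean was 107 ± 16.2 CPM (SD, n = 3) against 128 ± 2.97 CPM (SD, n = 3), a log2 fold change of -0.29 (standard error 0.11, unadjusted p = 0.0190, adjusted p = 0.616 by edgeR). With single libraries left out, Dlg1 lost the unadjusted threshold without WAS replicate 1 (-0.21), WAS replicate 3 (-0.27), control replicate 1 (-0.29) or control replicate 3 (-0.28). It was -0.075 with WAS replicates 1 and 3 both left out and -0.42 without WAS replicate 2, where its adjusted p was 0.0204.

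The Dlg1 to Dlg2 ratio was 0.531, 0.614 and 0.615 in the WAS-labelled libraries and 0.672, 0.632 and 0.703 in the control-labelled ones. The Dlg1 to Dlg3 ratio was 0.569, 0.651 and 0.614 against 0.677, 0.665 and 0.730. The groups were apart for both pairs, with log2 differences of -0.19 and -0.18 (each exact permutation p = 0.1, two-sided, n = 3 per group, the smallest this design allows, and 0.3 after Benjamini-Hochberg adjustment over the 12 pairs), while Dlg1 to Dlg4 overlapped. The remaining Dlg ratios differed by at most 0.020 on the log2 scale in either direction and turned sign when single libraries were left out.

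Dlg4 (ENSMUSG00000020886, chromosome 11, 70016942 to 70047522, plus strand) was measured at 409, 405 and 329 CPM in the WAS-labelled libraries and at 428, 387 and 381 CPM in the control-labelled ones. WAS replicate 3 was the lowest library and WAS replicates 1 and 2 lay within the control range. Its log2 fold change was -0.10 (standard error 0.098, unadjusted p = 0.321 by edgeR). Dlg2 (ENSMUSG00000052572, chromosome 7, 90476672 to 92449247, plus strand) had 176, 204 and 167 CPM against 194, 197 and 184 CPM, with -0.11 as the log2 fold change (standard error 0.092, unadjusted p = 0.258 by edgeR). Dlg3 (ENSMUSG00000000881, chromosome X, 100767722 to 100818410, plus strand) had 165, 192 and 167 CPM against 193, 188 and 177 CPM, with -0.13 as the log2 fold change (standard error 0.087, unadjusted p = 0.179 by edgeR). In Dlg1, Dlg2 and Dlg3 alike, WAS replicates 1 and 3 were the 2 lowest libraries. Without WAS replicate 2, Dlg2 (-0.20) and Dlg3 (-0.20) passed an unadjusted p under 0.05, as 13.7% of all genes then did, and with WAS replicates 1 and 3 both left out they were at 0.047 and 0.0090. The summed Dlg counts were 845 ± 80.2 CPM (SD, n = 3) against 904 ± 37.7 CPM (SD, n = 3) and overlapped.

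**Figure D3:**
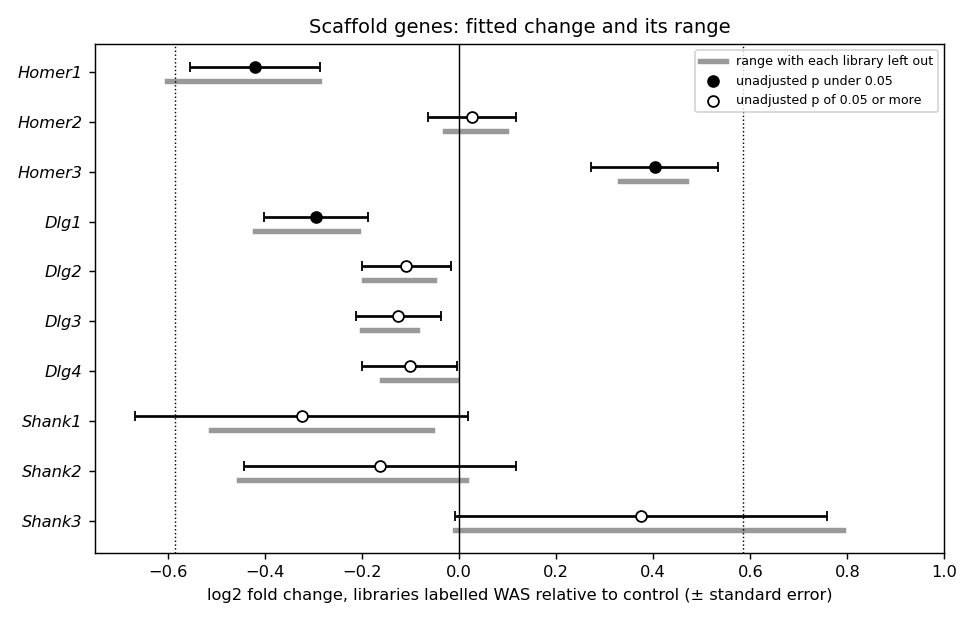
Fitted log2 fold change of each scaffold gene, libraries labelled WAS relative to control (horizontal axis; circles with standard error, filled where the unadjusted p is under 0.05), with the range over the fits that each left out 1 library in grey and a fold change of 1.5 dotted. Homer1 (-0.42), Homer3 (0.40) and Dlg1 (-0.29) are filled, and the grey range of Shank3 runs from -0.0076 to 0.79.

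The Shank genes, whose proteins lie deeper in the density than Dlg proteins, showed the largest spread between libraries. Shank3 (ENSMUSG00000022623, chromosome 15, 89499623 to 89560261, plus strand) was measured at 15.8, 70.7 and 57.9 CPM across the WAS replicates and at 29.1, 39.6 and 39.4 CPM in the control replicates. The libraries labelled WAS thus held the lowest and the 2 highest values, with a ratio of 4.48 between the highest and the lowest library. Its counts were 159, 654 and 578 against 306, 411 and 393, at which counting error alone gives a coefficient of variation of 3.91% to 7.93%. The coefficient of variation of Shank3 between libraries was 59.7% in the group labelled WAS and 16.6% in the control group. Its SD within groups on the log2 scale was 0.82, larger than that of 99.4% of the genes tested. The mean was 48.1 ± 28.7 CPM (SD, n = 3) against 36.0 ± 5.98 CPM (SD, n = 3), a log2 fold change of 0.38 (standard error 0.38, unadjusted p = 0.348 by edgeR).

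The Shank3 value rested on single libraries. Without WAS replicate 1 the log2 fold change of Shank3 was 0.79 (unadjusted p = 0.000219, adjusted p = 0.366 by edgeR), and without WAS replicate 2 it was -0.0076. With WAS replicates 1 and 3 both left out it was 0.93, in a fit that does not see the spread of 15.8 to 70.7 CPM among the WAS-labelled libraries. WAS replicate 1, the lowest library for Shank3, was also the lowest for the striatal marker sum (175 CPM), and WAS replicate 2 was the highest for both. WAS replicate 3 broke this order, with the second lowest striatal sum (412 CPM) and the second highest Shank3.

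Lzts3, which encodes the Shank-binding protein ProSAPiP1, spread over the libraries in much the same way, with 14.3, 74.2 and 43.3 CPM across the WAS replicates and 35.0, 51.6 and 38.2 CPM in the control replicates. It was picked out after its values were seen. WAS replicate 1 was lowest and WAS replicate 2 highest for both genes, and the log2 fold change of Lzts3 was 0.036 (standard error 0.40, unadjusted p = 0.931 by edgeR).

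Shank1 and Shank2 were counted too thinly for small differences to be seen. Shank1 (ENSMUSG00000038738, chromosome 7, 44310253 to 44360572, plus strand) had 35, 15 and 37 counts in the WAS-labelled libraries and 31, 35 and 46 in the control-labelled ones, and Shank2 (ENSMUSG00000037541, chromosome 7, 144001928 to 144424494, plus strand) had 75, 38 and 47 against 49, 61 and 73. Counting error alone gives 25.8% for the lowest Shank1 count and 16.2% for the lowest Shank2 count. The log2 fold changes were -0.32 for Shank1 (standard error 0.34) and -0.16 for Shank2 (standard error 0.28), with overlapping groups. WAS replicate 2, the highest library for Shank3, was the lowest for Shank1 and for Shank2. With WAS replicates 1 and 3 both left out Shank1 was therefore at -1.11, from 15 counts in the only library left with that label. The end of Shank1 overlaps 1700008O03Rik on the opposite strand, which had 1224 to 2144 counts, and reads of the 2 genes cannot be told apart there if strand was not used.

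**Figure D4:**
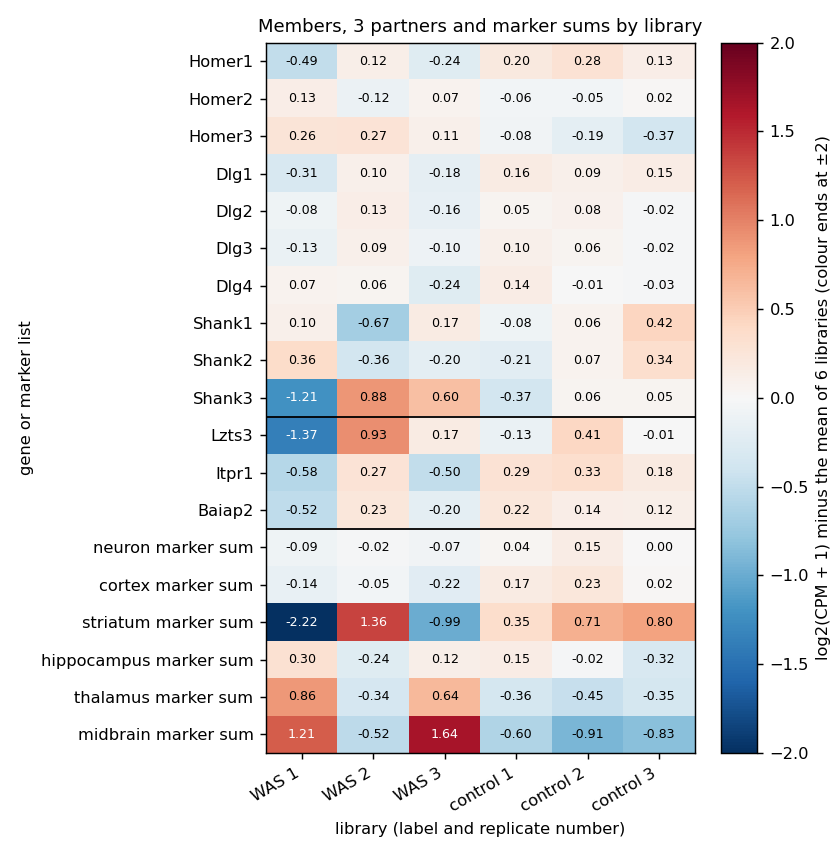
Log2(CPM + 1) minus the mean of 6 libraries (colour and printed number, colours end at ±2) for the 10 members, for 3 partners chosen after their values were seen and for summed markers of 6 lists, with 1 column per library. WAS replicates 1 and 3 share low Homer1, Dlg1, Itpr1, Baiap2 and striatal values and high thalamic and midbrain values, and Shank3 is lowest in WAS replicate 1.

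The binding partners of the scaffolds were taken from 4 lists with 38 genes, of which 37 were tested and 11 had an unadjusted p under 0.05, 9 lower and 2 higher in the WAS-labelled libraries. Among all genes tested 3.4% passed as lower and 3.85% as higher. None passed an adjusted p of 0.05 by edgeR, but Nos1 did so with DESeq2 (adjusted p = 0.0383) and 6 of the 37 did so in the edgeR fit without WAS replicate 2, as did 3.22% of all genes. The median log2 fold change of the partners was -0.16 and 28 of the 37 were below 0. When libraries were scaled to the summed neuronal markers, 17 were below 0 and the median was 0.0072. That scaling also moved the median of all genes from 0.00088 to 0.16, and the median of the partners stayed below it. The count of 11 rested on the libraries used. It was 17 without WAS replicate 2 (13.7% of all genes), 6 without WAS replicate 1 (6.57%) and 3 without WAS replicate 3 (4.29%). Without control replicate 1 it was 7 (4.97%), without control replicate 2 it was 1 (4.09%) and without control replicate 3 it was 8 (7.23%).

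The GKAP genes, the bridge from Dlg to Shank, had 4 members tested and 4 values below 0. There were 3 below 0 with total-count scaling and with limma, and 2 with neuronal scaling, which raised the median of all genes to 0.16. An unadjusted p under 0.05 was reached by 2 of them, both lower, where 3.4% of all genes passed as lower. The count was 0 with limma (5.7% of all genes), with neuronal scaling (15.1%), without WAS replicate 3 (4.29%) and without control replicate 2 (4.09%). Dlgap3, the form known from striatum, averaged 157 ± 28.3 CPM (SD, n = 3) in the WAS group against 193 ± 7.69 CPM (SD, n = 3) in the control group (log2 fold change -0.33, unadjusted p = 0.0159 by edgeR). Its 3 values labelled WAS were 142, 190 and 140 CPM, so that WAS replicate 2 again lay with the control libraries (184, 199 and 196 CPM). Dlgap2 was at -0.28 (unadjusted p = 0.0347 by edgeR), and Dlgap1 and Dlgap4, which had more counts, were at -0.15 and -0.035.

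Among the 8 partners of Homer, 3 passed an unadjusted p under 0.05, each lower in the WAS-labelled libraries, where 3.4% of all genes passed as lower. The count was 0 of 8 with DESeq2 (5.82% of all genes), without WAS replicate 1 (6.57%) and without control replicate 2 (4.09%). Itpr1, the inositol trisphosphate receptor that Homer ties to metabotropic receptors, was at 203, 366 and 214 CPM across the WAS replicates and at 370, 382 and 344 CPM in the control replicates. WAS replicates 1 and 3 were far below the rest and WAS replicate 2 lay among the control libraries, whereas for Homer1 it lay just below them. Its log2 fold change was -0.52 (standard error 0.18, unadjusted p = 0.0161 by edgeR), and -0.84 without WAS replicate 2. Trpc1, a cation channel gated through Homer, had 7, 4 and 8 counts against 11, 15 and 20 (-1.04, standard error 0.43), too few for a firm value. Dbn1, which encodes the actin-binding protein drebrin, was at -0.19. The metabotropic receptor gene Grm5 did not pass and was at -0.0073 (380 ± 43.1 against 373 ± 21.1 CPM, SD, n = 3 per group).

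Of the 18 partners of Dlg, 17 were tested and 6 passed an unadjusted p under 0.05, 4 lower and 2 higher, where 7.24% of all genes passed. The count was 1 with limma (5.7% of all genes), 1 without control replicate 2 (4.09%) and 2 without WAS replicate 3 (4.29%). Cacng2 and Cacng3, which encode the AMPA receptor partners stargazin and TARP gamma-3, were at -0.20 and -0.30. Kalrn, a guanine nucleotide exchange factor of spines, was at -0.30 and Sipa1l1, which encodes the spine protein SPAR, at -0.29. The genes higher in the WAS-labelled libraries were Nos1 and Lrrtm1, a direction that would be opposite were the labels exchanged. Nos1, the neuronal nitric oxide synthase that docks on PSD95, was at 0.63 (standard error 0.13). It had 51.3, 39.2 and 54.1 CPM against 29.7, 31.5 and 29.97 CPM. Lrrtm1, a postsynaptic adhesion protein, was at 0.39 (standard error 0.15). For both the groups were apart, and WAS replicate 3 had the highest value. The NMDA receptor subunit gene Grin2b was at -0.19 (unadjusted p = 0.0586 by edgeR) without overlap, and Grin2a had 28 to 55 counts per library.

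None of the 8 partners of Shank passed an unadjusted p under 0.05, where 7.24% of all genes did. Baiap2 passed with DESeq2 (unadjusted p = 0.0230), where 5.82% of all genes did. Baiap2 and Arhgef7 passed as lower with no filter on low counts, with the replicate block and without WAS replicate 2. In these fits 6.9%, 9.37% and 13.7% of all genes passed in either direction. Baiap2, which encodes the actin regulator IRSp53, came closest with 183, 307 and 228 CPM against 306, 288 and 285 CPM (log2 fold change -0.33, standard error 0.15, unadjusted p = 0.0507 by edgeR), and it was at -0.55 without WAS replicate 2. Arhgap44, the next by counts, was at 0.0084.

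**Figure D5:**
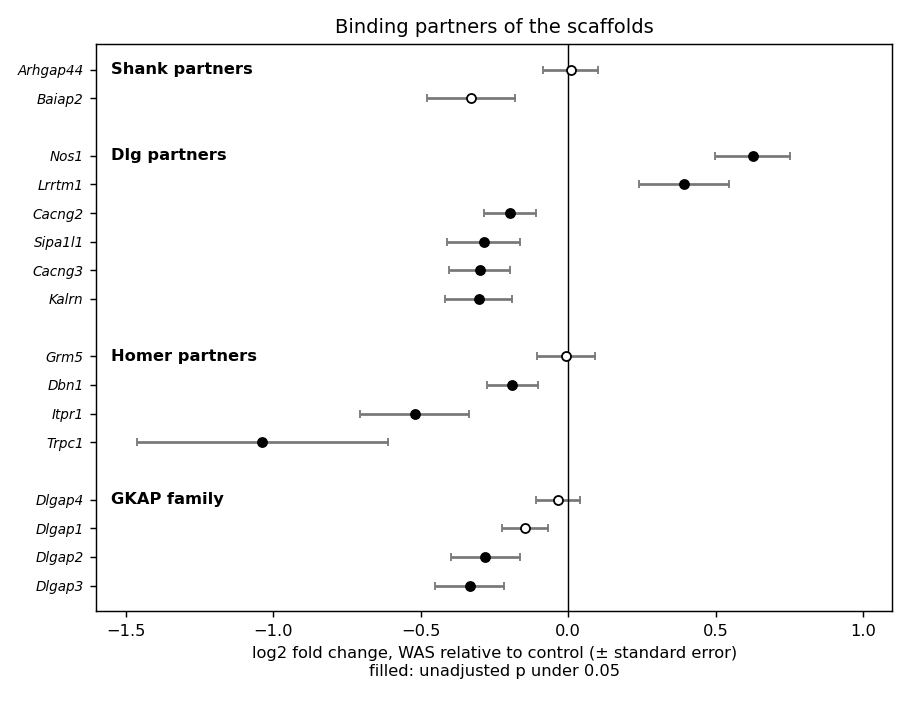
Fitted log2 fold change (horizontal axis, circles, with standard error) of 16 of the 37 tested binding partners of the scaffolds, WAS label relative to control, in 4 lists. Shown are those with an unadjusted p under 0.05 and the 2 with the most counts in each list. Filled circles are the former, and 9 of the 11 filled circles lie below 0.

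Genes whose levels followed Homer1 and Homer3 most closely over the 6 libraries were searched among 7209 other genes with a mean of at least 20 CPM, by the root mean square difference of their centred log2(CPM + 1) values. The closest to Homer1 were Kcnh3 (0.050), 9430020K01Rik (0.057), Cspg5 (0.073), Stard8 (0.074) and Baiap2 (0.076), the last a Shank partner from the lists above. Kcnh3, a potassium channel of forebrain neurons, had 72.4, 120 and 85.2 CPM in the WAS-labelled libraries and 127, 130 and 116 CPM in the control-labelled ones. The closest to Homer3 were Zfp467 (0.059), BC017643 (0.066), Mlst8 (0.070), Ilvbl (0.073) and Atp6v0e (0.082). These matches are descriptions over 6 libraries.

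Among 8 activity-induced genes set beside Homer1, Egr1 was lower (-0.42, unadjusted p = 0.00111 by edgeR) and Fos (0.34), Npas4 (0.48) and Junb (0.30) were higher in the WAS-labelled libraries at an unadjusted p under 0.05, while Arc (-0.056), Nr4a1 (-0.019), Dusp1 (0.31) and Bdnf (-0.043) did not pass. These were 4 of 8 genes, 3 of them higher, where 7.24% of all genes passed and 3.85% passed as higher. Without control replicate 3 (7.23% of all genes) and with limma (5.7%) only Egr1 of the 8 passed. Fos and Npas4 also missed the threshold without WAS replicate 3 or control replicate 1. Npas4 and Junb missed it without WAS replicate 1. Fos, Npas4 and Junb all passed without WAS replicate 2 or control replicate 2. The log2 fold changes of Fos, Npas4 and Junb were 0.33, 0.49 and 0.32 with limma and 0.24, 0.32 and 0.21 without control replicate 3. None passed an adjusted p of 0.05 by edgeR, and Egr1 did with DESeq2 (adjusted p = 0.0407), by which Npas4 missed the unadjusted threshold. Of the 4 that passed, Egr1 alone had the direction of Homer1, and Fos, Npas4 and Junb had the opposite one. The library orders of Egr1 and Homer1 differed. WAS replicate 2 was the lowest library for Egr1 (437 CPM) but the highest WAS-labelled one for Homer1 (219 CPM).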

How the data were processed

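QuantSeq 3′ mRNA-Seq libraries of forebrain RNA from 3 mice labelled WAS and 3 labelled control were analysed. The authors made the deposited read counts with Bowtie2 and Bedtools, counting unique and multiple alignments of single-end reads per gene symbol. The submitters' processing notes name the build mm10, and the annotation is not given in the sources used here. The deposited counts were whole numbers without the quantile normalization that the authors applied later. Levels are CPM, counts scaled to a library total of 1000000. Genes with a mean log2(quantile-normalized count + 1) of at least 2 were tested with TMM scaling and quasi-likelihood F tests (edgeR version 4.0.16, R version 4.3.3), with a prior count of 2 and Benjamini-Hochberg adjustment, without a replicate block. Each standard error was taken from the fold change and its F value. Intervals from counting cover counting error only, as the reads carry no molecular identifiers. The labels call the replicates biological, 1 per mouse. Genes were placed with GENCODE M21 (GRCm38). Alternatives used DESeq2 1.42.0, limma 3.58.1, other filters and scalings, a replicate block, and fewer libraries.

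The members and lists were chosen with earlier results of these data known. All members are named, with partners of an unadjusted p under 0.05, the 2 with the most counts in each partner list and the 5 genes closest in pattern to Homer1 and Homer3. Other genes named were chosen after their values were seen, and values of some listed partners are not reported here.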

Additional observations from a re-analysis of the deposited data

How the results depend on the processing

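Of the member results, Homer3 kept its direction and an unadjusted p under 0.05 in every alternative that held at least 2 WAS-labelled libraries; with WAS replicates 1 and 3 both left out the control libraries alone supply the spread. The count of 3 members at an unadjusted p under 0.05 was 1 with limma on quantile-normalized log2 counts and 1 when libraries were scaled to summed neuronal markers, and ran from 2 to 5 with each library left out. The count meeting the fold criterion was 0 to 1 with each library left out and 2 with WAS replicates 1 and 3 both left out. The count of partners was 7 with total-count scaling (7.66% of all genes), 2 with limma (5.7%) and 4 with neuronal scaling (15.1%). It was 1 to 17 with each library left out (4.09% to 13.7%). Scaling to neuronal markers, chosen after seeing the data, moved the median of all genes to 0.16, that of the members to 0.041 and that of the partners to 0.0072, with Dlg2 at 0.049, Dlg3 at 0.033 and Dlg4 at 0.055. The median of the partners was -0.036 with WAS replicates 1 and 3 both left out, where Homer2 was at -0.13, Dlg2 at 0.047 and Dlg3 at 0.0090. Signs also turned with single libraries left out, where Homer2 ran from -0.029 (without WAS replicate 1) to 0.097, Shank2 from -0.45 to 0.013 (without control replicate 3) and Shank3 from -0.0076 (without WAS replicate 2) to 0.79. Differences of log2 ratios ran, with each library left out, from -0.0053 to 0.046 for Dlg2/Dlg3, -0.051 to 0.071 for Dlg2/Dlg4, -0.094 to 0.076 for Dlg3/Dlg4, -1.39 to 0.24 for Shank1/Shank3 and -1.25 to 0.26 for Shank2/Shank3. The cause was not tested. As a replicate block, the number gave 3 members and 14 partners at an unadjusted p under 0.05, with -0.44 for Homer1 (adjusted p = 0.130 by edgeR), but deviations of same-numbered libraries correlated by only 0.088 to 0.115, so the numbers were not taken as pairs, although 6 of 6 libraries correlated best with the library of their own number, a hint from the data and not from the design. Over all genes the block moved the calls at an unadjusted p under 0.05 from 1104 to 1428 and at an adjusted p of 0.05 from 0 to 49. Homer1 missed an unadjusted p of 0.05 with limma (-0.42) and with neuronal scaling (-0.26), as did Dlg1, which also missed it without WAS replicate 1, WAS replicate 3, control replicate 1 or control replicate 3. Depth limited Shank1, Shank2, Trpc1 and Grin2a most.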

Other observations

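A low count for a symbol in these tables need not mean a low level of its RNA. Drd2, the dopamine receptor gene of striatal neurons, was listed at 0 counts in 5 libraries and at 1 count in control replicate 2, while Adora2a, which the same neurons express, had 5, 465 and 73 counts in the WAS group (replicates 1 to 3) and 279, 293 and 348 in the control group, and Penk had 240, 3911 and 862 against 2160, 2489 and 2502. Among the scaffold genes and their partners, Shank1 (15 to 46 counts) and Cacng8 (0 to 2 counts) were also thin, although these genes are known from forebrain excitatory synapses. A count of one gene above that of another is therefore no comparison of their levels.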
